A study of Mus musculus with 6 samples.

Results

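Expression of 10 genes of the TLC-domain family was followed in cultured mouse germline stem cells: Fam57a and its closest relative Fam57b (now Tlcd3a and Tlcd3b), Tlcd1, Tlcd2, and the 6 ceramide synthase genes Cers1 to Cers6. The genes are 10 of the 32285 genes in the count table, found by their Ensembl identifiers, and all 10 passed the filter on low counts. Fam57a was chosen by its fold change and adjusted p between the media in these same libraries, so its change is a description and carries no test. The other 9 were added by family name. Germline stem cells are the cultured counterpart of spermatogonial stem cells, and all libraries came from 1 line, the wild-type DBA-GFP GS cell. The first group of 3 libraries came from cells in a medium named for 8 mM pyruvate and the control group of 3 libraries from cells in complete medium. The labels give no other difference between the media, no time in medium and no word on separate cultures. The spread between libraries, on which every p-value here rests, may therefore be technical.

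The TLC domain, named after TRAM, LAG1 and CLN8 proteins, is a block of membrane-spanning helices found in proteins of the endoplasmic reticulum and other membranes. In the ceramide synthases this domain joins a fatty acyl-CoA to a long-chain base, the step that makes dihydroceramide, from which ceramide, sphingomyelin and glycosphingolipids are built. The paralogs differ in the acyl chain they prefer: Cers5 and Cers6 use mainly palmitoyl-CoA, Cers1 stearoyl-CoA, Cers4 long to very long chains, Cers2 very long chains and Cers3 very and ultra long chains, the last of these in skin and in meiotic and later germ cells of the testis. Tlcd1 and Tlcd2 limit the uptake of polyunsaturated fatty acids into membrane phospholipids, and Fam57b has been linked to ceramide synthesis. The role of Fam57a is less well defined.

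Library totals ran from 21830090 to 25562768 counts in pyruvate medium and from 20918312 to 26413080 in control. Levels are CPM, counts scaled to library size with TMM factors, and 3 counts in a library equal 0.116 to 0.143 CPM. On the leading principal component (38.9% of the variance) the pyruvate libraries had scores of -27.2, -1.42 and -4.64 and the controls -4.12, 36.5 and 0.81. Control replicate 2 lay farthest from the others there, and pyruvate replicate 1 lay apart on the opposite side. On the next component (28.4%) the pyruvate libraries had scores of 9.84, 15.1 and 12.5 and the controls -23.4, 7.33 and -21.4. Control replicate 2 thus lay on the side of the pyruvate libraries there. Of the 13 markers of spermatogonial stem cells all were tested, and their summed level was 3210 to 3904 CPM in pyruvate medium and 3637 to 4450 CPM in control. The 12 markers of differentiating and meiotic germ cells summed to 508 to 606 CPM in pyruvate medium and 638 to 722 CPM in control. Prm1 was at 0 in every library. Of the 10 tested, 5 had a log2 change below 0, and 0 had an adjusted p under 0.05 in edgeR, where 0.0536% of all tested genes did. Those of fibroblasts and feeders summed to 385 to 422 CPM in pyruvate medium and 403 to 467 CPM in control. Most of that sum was Fn1, with means of 284 CPM in pyruvate medium and 319 CPM in control. The Sertoli list summed to 514 to 574 CPM in pyruvate medium and 542 to 557 CPM in control, nearly all from Dmrt1, which germ cells also express, while Amh and Gata4 had at most 14 counts. The part of these markers in the results was not tested.

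Fam57a lies on the plus strand of chromosome 11 (ENSMUSG00000069808, 76179671 to 76214827 on GRCm38). GENCODE gives it 5 transcripts, of which 2 begin at the upstream start and 3 begin at least 22.3 kb downstream. The upstream start lies 24 bases from the start of Vps53, which runs the other way. The counts are per gene and cannot be split between the starts. Because both starts feed the 1 value reported for Fam57a, the 250 bases before each RefSeq start (GRCm38.p6, plus strand, 5′ to 3′) are shown, with the ETS-type letters ACTTCCGG and the GC box letters GGGCGG, on either strand, in capitals.

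Fam57a upstream start, chr11:76179421-76179670: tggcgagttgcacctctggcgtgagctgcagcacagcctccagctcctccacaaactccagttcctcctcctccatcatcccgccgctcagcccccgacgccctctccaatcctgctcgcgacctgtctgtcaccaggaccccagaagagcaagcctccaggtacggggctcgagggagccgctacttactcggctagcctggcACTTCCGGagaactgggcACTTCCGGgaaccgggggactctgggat

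Fam57a downstream start, chr11:76201842-76202091: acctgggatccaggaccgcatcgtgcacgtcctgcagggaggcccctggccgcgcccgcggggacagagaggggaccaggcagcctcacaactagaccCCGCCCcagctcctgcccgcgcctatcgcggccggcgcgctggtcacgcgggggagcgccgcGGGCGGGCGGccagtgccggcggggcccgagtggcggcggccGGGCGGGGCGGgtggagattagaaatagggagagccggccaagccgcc

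The windows differ in their letters. The upstream window holds ACTTCCGG 2 times, 46 and 28 bases before the start, and GGGCGG 0 times. An annotated exon of Vps53 on the other strand spans -0.258 to -0.024 kb from that start. Most of the upstream window is thus also Vps53 exon, with the match at 46 bases and part of that at 28 bases. These letters cannot be assigned to Fam57a rather than to Vps53. The downstream window holds GGGCGG 5 times, some of them overlapping, and ACTTCCGG 0 times. Among all 32851 RefSeq windows of the same 250 bases, 2.88% held ACTTCCGG at least once and 32.7% held GGGCGG. ACTTCCGG was chosen after the upstream sequence was seen, and the 13 windows of the other members held it 0 times. The E-box letters CACGTG, present in 6.02% of all windows, were found once in a window of Cers2 and once in that of Cers6, and in neither window of Fam57a. CCAAT, present in 33.9% of all windows, was found 1 time in the upstream window and 0 times in the downstream one, and TATAAA, present in 12.4%, in neither; all letters were searched on both strands. A match in these letters is a description and not a binding site.

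**Figure D1:**
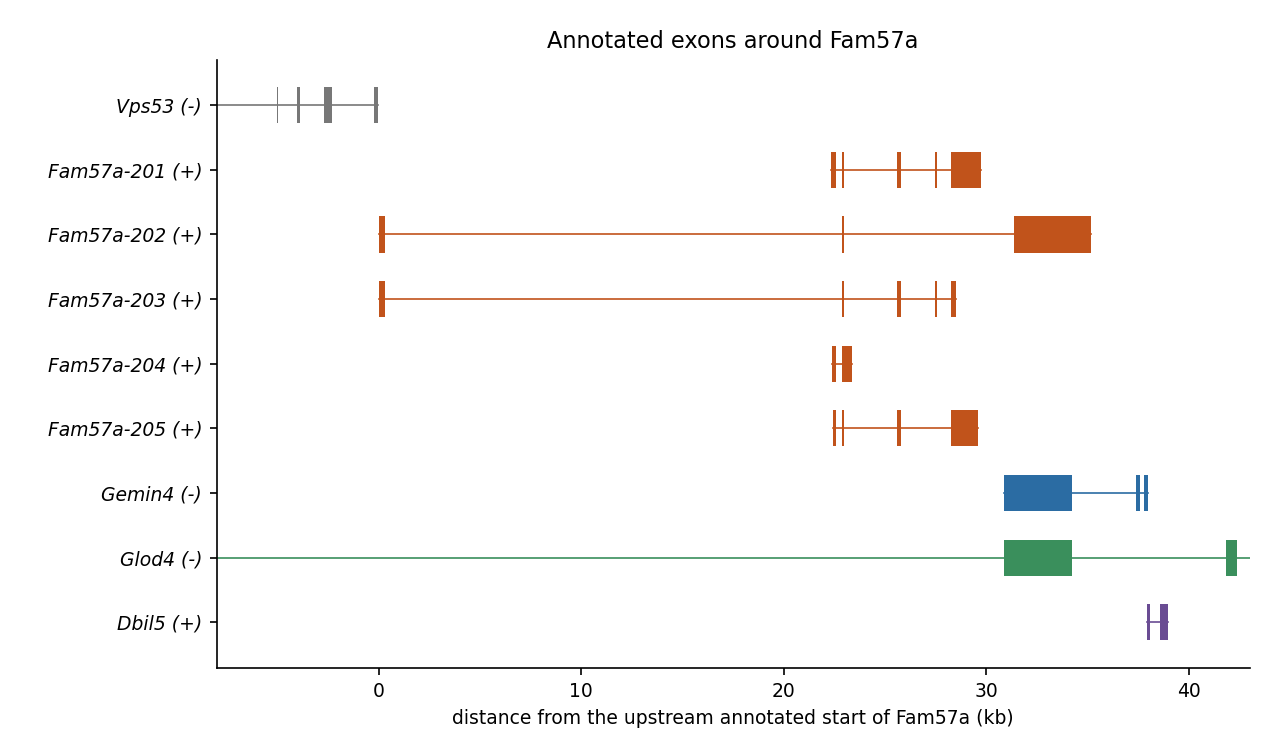
Annotated exons (boxes) of Fam57a transcripts and of neighbouring genes, by distance in kb from the upstream annotated start of Fam57a; the sign after each name is the strand, lines join exons, and the lines of Vps53 and Glod4 run to the edge where the gene goes on. The last exon of 1 of the 5 Fam57a transcripts lies over the long exon that Gemin4 and Glod4 share on the opposite strand.

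Fam57a had 17.9, 20.4 and 21.3 CPM in pyruvate medium, against 40.6, 36.6 and 39.6 CPM in control. All 3 pyruvate libraries lay below all 3 control libraries, with 449 to 526 counts in pyruvate medium and 829 to 932 counts in control. The means were 19.9 ± 1.76 CPM in pyruvate medium and 38.9 ± 2.10 CPM in control (SD, n = 3 each), a level 1.96-fold lower in pyruvate medium, or -0.97 on the log2 scale (SE 0.10). This is the value that chose the gene. In bulk libraries, fewer cells that express a gene and less of its RNA per cell cannot be told apart. Across 7 other whole-table fits with all libraries the log2 change lay between -0.98 and -0.94, and across the 6 fits without 1 library between -1.02 and -0.90. Control replicate 2, the library that stood apart, was the lowest of the controls for Fam57a, and without it the log2 change was -1.02 (SE 0.094).

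By edgeR's quasi-likelihood test over 14912 genes, 1 of the 10 members was past an adjusted p of 0.05, Fam57a itself, where 0.0536% of all tested genes were. That count was fixed by the choice of the gene. Fam57a was also the member past the threshold with library totals, with no filter, with a minimum of 5 CPM and with the replicate number as a block, where the shares of all tested genes were 0.0939%, 0.371%, 0.0551% and 1.78%, and with DESeq2's size factors and limma-voom, where the share was 0.0536% in each. Of the 6 fits without 1 library, Fam57a was past the threshold in 1, the fit without control replicate 2, in which 4.16% of all tested genes were. In the others, in which it was not, the shares of all tested genes were 0.00666%, 0% and 0% without pyruvate replicates 1, 2 and 3, and 0.0197% and 0.00654% without control replicates 1 and 3.

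The exons of Fam57a overlap those of other genes in 2875 of 6615 bases (43.5%), all on the opposite strand and all in the last exon of the same transcript. Those bases belong to Gemin4, a component of the SMN complex, and to Glod4, a glyoxalase-domain protein. Gemin4 had 11 to 18 counts in pyruvate medium and 16 to 19 counts in control, so that few reads were assigned to it in any library. Its long exon is also annotated in Glod4 on the same strand. The counts of Gemin4 therefore do not show how much RNA of that strand lies over the shared bases. Glod4 had 610 to 704 counts in pyruvate medium and 702 to 770 counts in control. Glod4 stood at -0.23 on the log2 scale (SE 0.085, adjusted p = 0.278). A stranded mRNA kit was used per the labels' protocols, but whether reads were counted by strand is not stated in the labels. The counts of Fam57a are therefore uncertain in the shared bases.

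The genes around Fam57a were read in the same fit. Of the 8 other counted genes within 200 kb, 0 passed edgeR's test, and 2 had an unadjusted p under 0.05, Glod4 and Rflnb, where 14.4% of all tested genes did. All 8 but Mrm3, at 0.00063, had a log2 change below 0, where 48.1% of all tested genes lay above 0. Without control replicate 2 all 8 lay below 0 (-0.58 to -0.063), where 52.4% of all tested genes lay above 0. The cause of this shared sign was not tested. Vps53, the trafficking subunit encoded head to head with the upstream start, stood at 74.3 ± 5.37 CPM in pyruvate medium and 84.5 ± 5.30 CPM in control (log2 -0.19, SE 0.089, adjusted p = 0.388). Dbil5, on the other side of Gemin4 and expressed in testis, stood at 3.13 ± 0.39 CPM in pyruvate medium and 3.23 ± 0.77 CPM in control. Rflnb, a filamin-binding protein gene beyond Vps53, stood at 6.46 ± 1.09 CPM in pyruvate medium and 10.2 ± 1.00 CPM in control (log2 -0.66, SE 0.15, adjusted p = 0.141), and it passed in DESeq2 (adjusted p = 0.0182). Tlcd2 and Tlcd1 are also on chromosome 11, 718 and 1997 kb from Fam57a, and their values follow.

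**Figure D2:**
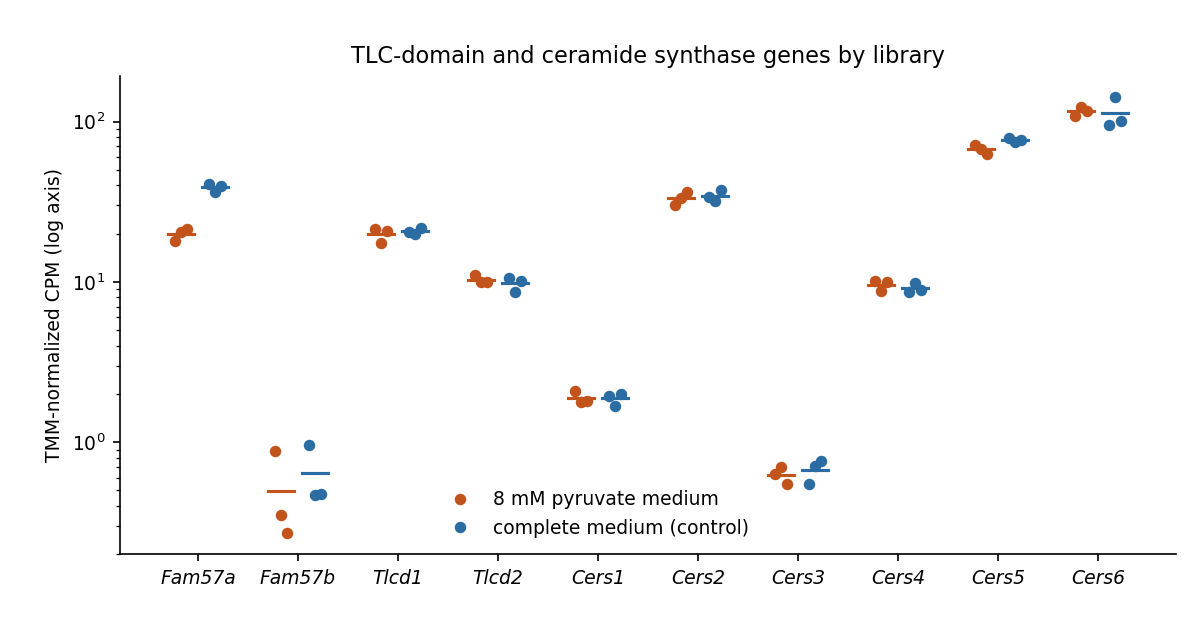
TMM-normalized CPM (log axis) of the 10 genes in each library, with 8 mM pyruvate medium to the left and complete medium to the right for each gene; points are libraries and lines are means of 3. Fam57a is at 17.9 to 21.3 CPM in pyruvate medium and 36.6 to 40.6 CPM in control, while the points of the other genes overlap between the media except those of Cers5.

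The other TLCD genes had overlapping levels in the media. Tlcd1 (chromosome 11, 78176711 to 78181909, plus strand; positions of all genes are on GRCm38) had 21.2, 17.6 and 20.7 CPM in pyruvate medium, against 20.6, 19.8 and 21.6 CPM in control. The groups overlapped, and the log2 change was -0.057 (SE 0.11, adjusted p = 0.839). Tlcd2 (chromosome 11, 75461715 to 75470899, plus strand) had 11.04, 9.93 and 9.96 CPM in pyruvate medium, against 10.6, 8.64 and 10.2 CPM in control, with a log2 change of 0.076 (SE 0.12, adjusted p = 0.809). Fam57b, the nearest relative of Fam57a (chromosome 7, 126797668 to 126830219, plus strand), was close to the counting floor, with 22, 9 and 6 counts in pyruvate medium and 21, 12 and 10 counts in control. Its log2 change was -0.32 with an SE of 0.51 (adjusted p = 0.805), and replicate 1 was the highest library in each medium.

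The 6 ceramide synthase genes differed far more from each other than between the media. Cers5 and Cers6, the palmitoyl-CoA users, led in both groups, followed by Cers2. Cers5 (chromosome 15, 99734881 to 99772885, minus strand) had 71.0, 67.2 and 63.0 CPM in pyruvate medium, against 79.5, 74.1 and 76.8 CPM in control. All 3 pyruvate libraries lay below all 3 controls, as did 10.6% of tested genes. The means were 67.1 ± 4.04 CPM in pyruvate medium and 76.8 ± 2.69 CPM in control (SD, n = 3 each), a log2 change of -0.19 (SE 0.081), and Cers5 did not pass (adjusted p = 0.328 in edgeR).

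Cers6 (chromosome 2, 68861441 to 69114282, plus strand) had 108, 124 and 116 CPM in pyruvate medium, against 95.6, 142 and 100.1 CPM in control. Control replicate 2 was the highest of all libraries, while the other 2 controls were the lowest. With all libraries the log2 change was 0.046 (SE 0.15, adjusted p = 0.910), and without control replicate 2 it was 0.25 (SE 0.073, adjusted p = 0.0869), so the value rests on that library. Cers2 (chromosome 3, 95314791 to 95323599, plus strand) had 30.2, 33.6 and 36.3 CPM in pyruvate medium, against 34.0, 32.05 and 37.3 CPM in control, and its groups overlapped (log2 -0.046, SE 0.10, adjusted p = 0.868).

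The remaining synthases were low. Cers4 (chromosome 8, 4493026 to 4531680, plus strand) had 8.77 to 10.2 CPM in pyruvate medium and 8.69 to 9.82 CPM in control (log2 0.070, SE 0.12, adjusted p = 0.818). Cers1 (chromosome 8, 70315775 to 70331592, plus strand) had 40 to 52 counts in pyruvate medium and 42 to 43 counts in control (log2 0.017, SE 0.18, adjusted p = 0.973). All exon bases of Gdf1, a growth factor encoded on the same strand, lie inside Cers1 exons and cover 42.5% of them. Gdf1 had 0 counts in every library, but with no exon base of its own this does not show that its RNA was absent. The counts of Cers1 are uncertain. Cers3, the synthase of meiotic and later germ cells (chromosome 7, 66743504 to 66823691, plus strand), had 12 to 18 counts in pyruvate medium and 12 to 18 counts in control (log2 -0.098, SE 0.28, adjusted p = 0.902).

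Across the 9 members other than Fam57a, log2 changes ran from -0.32 to 0.076 with a median of -0.046, against -0.0100 for all tested genes, and adjusted p from 0.328 to 0.973. DESeq2, in which 2.3% of genes with an adjusted p passed, called Fam57a alone of the 8 members to which it gave one, all but Fam57b and Cers3. The groups did not overlap in 2 of the 10 members, Fam57a and Cers5, both lower in pyruvate medium, where 22.5% of all tested genes did not overlap in either direction. A p above the threshold does not show that a gene was equal in the media. The SE was 0.081 to 0.15 for the 6 of these genes at 5 CPM or more and 0.18 to 0.51 for Cers1, Cers3 and Fam57b.

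**Figure D3:**
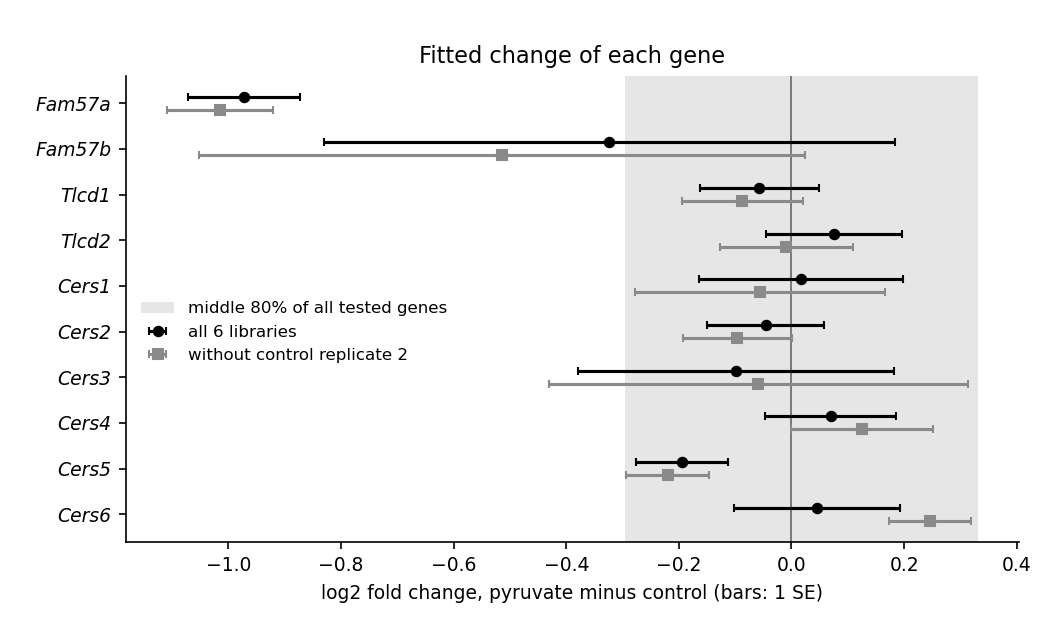
Fitted log2 fold change of each gene, pyruvate minus control, with all 6 libraries (circles) and without control replicate 2 (squares); bars are 1 SE and the grey band spans the middle 80% of all tested genes. Fam57a lies at -0.97 and -1.02, outside the band, and Cers6 moves between 0.046 and 0.25 with the library left out.

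Levels of different genes were compared per kb of annotated exon. In pyruvate medium the order was Cers5 (18.9 ± 1.14 CPM per kb), Cers6 (13.1 ± 0.91), Cers2 (9.08 ± 0.83), Tlcd2 (5.32 ± 0.33), Tlcd1 (3.96 ± 0.40), Fam57a (3.00 ± 0.27), Cers4 (0.78 ± 0.061), Cers1 (0.60 ± 0.050), Cers3 (0.19 ± 0.024) and Fam57b (0.13 ± 0.084). In control, Fam57a stood between Cers2 and Tlcd2, at 5.89 ± 0.32 CPM per kb, above Tlcd2 at 5.06 ± 0.53 and Tlcd1 at 4.12 ± 0.18, and the order of the others was as in pyruvate medium. Neighbours in each order did not overlap across their 3 libraries, except Cers3 and Fam57b, which overlapped in both media. For a further length, only exon bases shared with no other gene were taken, 3740 for Fam57a, while all reads of each gene were kept. Fam57a then had 5.31 CPM per kb in pyruvate medium and 10.4 CPM per kb in control. The order changed for 4 of the 10 genes in pyruvate medium. With the same kind of length in control, Fam57a stood above Cers2, at 9.97 CPM per kb, and not below it.

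The 6 synthases together summed to 42.1, 43.6 and 42.3 CPM per kb in pyruvate medium and 43.9, 47.1 and 44.7 CPM per kb in control. Cers5 held 47.6%, 43.6% and 42.0% of that sum in the pyruvate libraries and 51.1%, 44.4% and 48.5% in the control libraries. Cers6 held 28.9%, 32.1% and 30.98% in the pyruvate libraries and 24.5%, 33.8% and 25.2% in the control libraries. The shares of both genes overlapped between the media, and control replicate 2 had the lowest Cers5 share and the highest Cers6 share of the controls. Cers2 held 21.3% ± 1.93 in pyruvate medium and 20.8% ± 2.12 in control (SD, n = 3 each), and Cers1, Cers3 and Cers4 held at most 1.97% each in any library. With exon bases shared with no other gene as length, Cers1 held 2.38% in pyruvate medium and 2.23% in control.

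**Figure D4:**
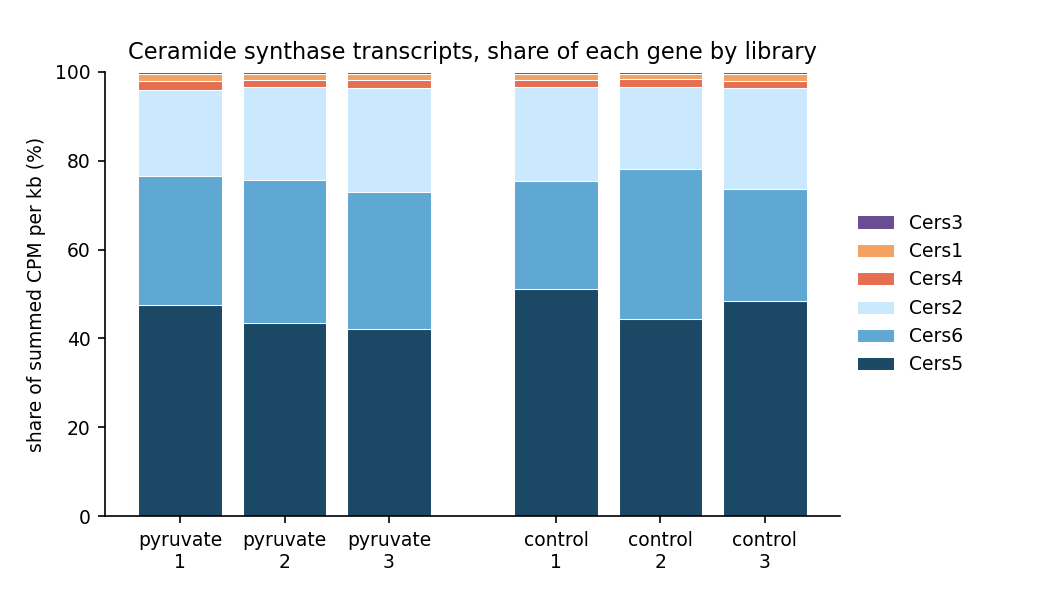
Share of each ceramide synthase gene in the summed CPM per kb of Cers1 to Cers6 (%, stacked bars from 0 to 100), by library, with the pyruvate libraries on the left and the control libraries on the right. Cers5, Cers6 and Cers2 fill nearly the whole bar in each of the 6 libraries.

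The pathway around the ceramide synthases was read from 10 lists with 81 genes, of which 71 were tested. The other 10 had at most 14 counts in any library, among them Sptlc3, Sptssb and Degs2, paralogs of serine palmitoyltransferase subunits and of the desaturase. In edgeR 0 of the 71 passed, higher or lower, and 9 had an unadjusted p under 0.05, as did 14.4% of all tested genes; of all tested genes 0.0201% were called higher and 0.0335% lower. Of the 71, 27 lay above 0 and 44 below, with a median log2 change of -0.051, where 48.1% of all tested genes lay above 0. The groups did not overlap in 15 of the 71, or 21.1%, against 22.5% of all tested genes. DESeq2 called 1 gene, Spns2, and 2.3% of all genes to which it gave an adjusted p. Without control replicate 2, 2 of 72 were called, B4galnt1 (adjusted p = 0.0212) and Glb1 (adjusted p = 0.0324), both lower in pyruvate medium, and 4.16% of all tested genes.

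The other TLC-domain genes, Tram1, Tram1l1, Tram2, Cln8, Tmem56 and Tmem136, had 1 of 6 above 0 and a median of -0.079, and 3 of 6 above 0 without control replicate 2. Tram1, a translocon-associated protein, stood at 112 ± 5.98 CPM in pyruvate medium and 119 ± 4.55 CPM in control (log2 -0.094, adjusted p = 0.615). Cln8, a sorting receptor of lysosomal enzymes, stood at 11.1 ± 1.07 CPM in pyruvate medium and 12.5 ± 0.73 CPM in control (log2 -0.17, adjusted p = 0.544). Of these 6 genes, 0 passed in edgeR or DESeq2, and 0 had an unadjusted p under 0.05.

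Upstream of the synthases, the genes that make the long-chain base had 3 of 7 tested members above 0 and a median of -0.083. Sptssa, a small activating subunit of serine palmitoyltransferase, stood at log2 -0.27 (adjusted p = 0.348), and Ormdl1, an inhibitor of that enzyme, at -0.25 (adjusted p = 0.530). Ormdl1 stood at -0.065 without control replicate 2, its highest library. Degs1, which turns dihydroceramide into ceramide, had 31.1 ± 1.03 CPM in pyruvate medium and 36.7 ± 2.84 CPM in control (log2 -0.24, SE 0.091, adjusted p = 0.288). Fa2h, which hydroxylates the acyl chain, had 2.16 ± 0.79 CPM in pyruvate medium and 1.33 ± 0.095 CPM in control (log2 0.71, SE 0.28, adjusted p = 0.302). In the list that supplies very long acyl-CoA, 2 of 11 lay above 0, with Elovl7, an elongase, at log2 0.56 (adjusted p = 0.274) and Hacd1, a dehydratase of the elongation cycle, at -0.31 (adjusted p = 0.354).

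Downstream of ceramide, sphingomyelinases release ceramide from sphingomyelin. All 7 tested genes of the sphingomyelinase list, not all of which are known to do this, lay above 0, with a median of 0.28. In edgeR 0 of them passed, and 1 of 7 had an unadjusted p under 0.05, where 14.4% of all tested genes did. With a minimum of 5 CPM, which leaves out the members of low level, the median was 0.081. In the fit without that minimum, Smpd4, at 165 ± 4.04 CPM in pyruvate medium and 157 ± 8.53 CPM in control, stood at log2 0.078. Smpd1, at 17.5 ± 1.45 CPM in pyruvate medium and 17.2 ± 2.17 CPM in control, stood at log2 0.024 in the same fit. Without control replicate 2, 6 of the 7 lay above 0, with a median of 0.23. Smpd2 had 88.5, 81.7 and 85.5 CPM in pyruvate medium, against 76.1, 59.8 and 75.8 CPM in control (log2 0.27, SE 0.11, adjusted p = 0.302). Control replicate 2 was the lowest library for Smpd2, which stood at 0.17 without it, and 20.3% of its exon bases overlap Mical1 on the opposite strand. Smpd5, of low level at 1.33 ± 0.24 CPM in pyruvate medium and 0.98 ± 0.14 CPM in control, stood at log2 0.44 (adjusted p = 0.456), and 13.8% of its exon bases overlap Oplah on the opposite strand. Among genes of ceramide transport and sphingomyelin synthesis, with 3 of 5 above 0, Cptp, a carrier of ceramide phosphate, stood at log2 0.17 (adjusted p = 0.474) and Samd8, a relative of the sphingomyelin synthases, at -0.30 (adjusted p = 0.514). Samd8 stood at -0.036 without control replicate 2, its highest library.

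Genes of glycosphingolipid synthesis had 2 of 8 tested members above 0, and 4 of 8 without control replicate 2. B4galnt1, which makes the gangliosides GM2 and GD2, had 9.85 ± 1.37 CPM in pyruvate medium and 14.6 ± 2.62 CPM in control (log2 -0.56, SE 0.16, adjusted p = 0.195). Its pyruvate libraries all lay below its controls, as did those of 10.6% of all tested genes. Of its exon bases, 20.7% overlap Slc26a10 on the opposite strand. A4galt, which makes globotriaosylceramide, stood at log2 0.46 (adjusted p = 0.371). In the list of lysosomal glycosphingolipid breakdown, whose genes are not all lysosomal, 2 of 11 lay above 0, and 0 of 11 without control replicate 2. Glb1, the beta-galactosidase, stood at log2 -0.23 (adjusted p = 0.338) and Neu3, a ganglioside sialidase, at -0.37 (adjusted p = 0.376). The 4 tested ceramidase genes, which split ceramide, all lay below 0, and Acer3 had 25.4 ± 2.25 CPM in pyruvate medium and 31.9 ± 3.14 CPM in control (log2 -0.33, SE 0.11, adjusted p = 0.235), while Asah1 stood at -0.056 (adjusted p = 0.826) and at 0.025 without control replicate 2. Without control replicate 2, 2 of the 4 lay above 0.

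Among genes of ceramide and sphingosine phosphates 6 of 10 lay above 0. Spns2, which exports sphingosine phosphate from the cell, had 8.23 ± 1.75 CPM in pyruvate medium and 4.89 ± 0.34 CPM in control (log2 0.76, SE 0.17, adjusted p = 0.136 in edgeR and 0.0184 in DESeq2). S1pr2, a receptor for it, had 29.4 ± 2.11 CPM in pyruvate medium and 36.0 ± 1.98 CPM in control (log2 -0.29, SE 0.093, adjusted p = 0.222). Exons of Spns2 overlap those of Mybbp1a on the opposite strand in 3.21% of their bases. For both genes the 3 pyruvate libraries lay apart from the 3 controls, as they did for 22.5% of all tested genes.

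**Figure D5:**
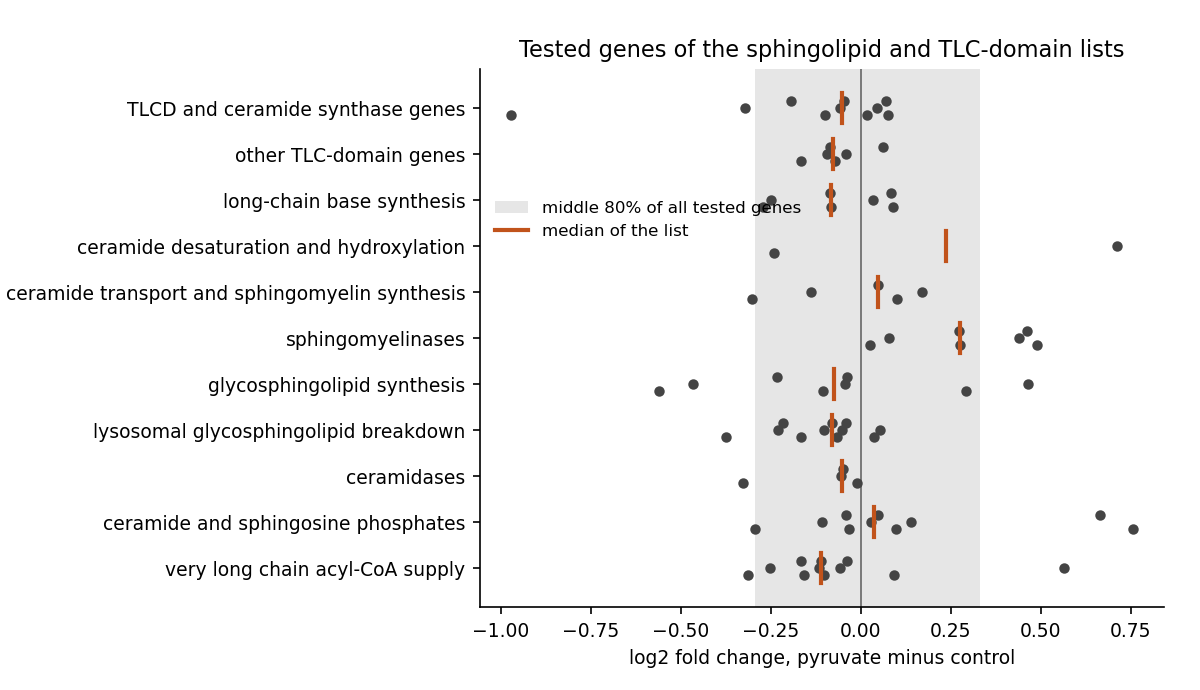
Log2 fold change, pyruvate minus control, of each tested gene (points) in the TLCD and ceramide synthase genes and in the 10 lists around them; the orange line is the median of each list and the grey band spans the middle 80% of all tested genes. Fam57a is the point at -0.97 in the top row, and the 7 tested genes of the sphingomyelinase list all lie above 0.

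Fam57a was last set against all other tested genes with a mean of at least 5 CPM by the Pearson correlation of log2 CPM over the 6 libraries, which follows the split between the media that chose the gene. The 5 most alike were Laptm4b, a lysosomal membrane protein that binds ceramide (r = 0.997), the phosphatase gene Dusp3 (r = 0.997), the autophagy gene Wdr45b (r = 0.994), thymidylate synthase Tyms (r = 0.992) and Pop1, a subunit of ribonuclease P (r = 0.992). Laptm4b had 24.9 ± 1.21 CPM in pyruvate medium and 37.03 ± 1.26 CPM in control (log2 -0.57, SE 0.086). Among the members Cers5 was the most alike (r = 0.806) and Cers4 had the lowest r (-0.480). Within the pyruvate libraries, the deviations from the group mean on the log2 scale were 0.085, 0.0044 and -0.089 for Cers5 and -0.15, 0.043 and 0.10 for Fam57a, in opposite order.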

How the data were processed

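The deposited table holds the authors' raw counts per gene, as whole numbers, and 3 columns of the table that match no sample used here entered no step. Tools in the submitters' processing notes are STAR 2.7.11a, HTSeq 2.0.5, cutadapt 4.6 and bcl2fastq 2.20, with build mm10; neither annotation release nor strand setting is stated there. Per the labels' protocols, a stranded mRNA kit was used. Symbols, positions and exon lengths are from GENCODE M21 on GRCm38. In R 4.3.3, edgeR 4.0.16 kept 14912 genes (filterByExpr, minimum count 10), with TMM scaling, the robust quasi-likelihood test without covariates and Benjamini-Hochberg adjustment at 0.05. SE was taken as the absolute log2 change over the root of the F statistic. Log2 CPM used a prior count of 2. Floors cover counting error only. The steps were tested on simulated counts. Library pairs within groups differed by more than sampling noise (chi-square per gene 3.11 to 47.0).

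Alternatives were DESeq2 1.42.0 and its size factors, library totals, no filter, 5 CPM in 3 libraries, limma-voom (limma 3.58.1), the replicate number as a block, leaving out each library, and other gene lengths. Members and lists were chosen with earlier results of these data known. Named genes are the members, the 2 list genes of lowest p per list, any past the threshold, the neighbours and genes overlapping a member. The 5 most like Fam57a and cell type markers are named too. Rflnb, Dbil5, Mrm3, Smpd1 and Smpd4 were named after their values were seen. Protein sequences were not used here.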

Additional observations from a re-analysis of the deposited data

How the results depend on the processing

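The count of tested genes past the threshold, 8 (3 higher, 5 lower), was 14 with library totals (8 higher, 6 lower), 83 with no filter, 265 with the replicate block and 317 in DESeq2, and 0 to 625 when 1 library was left out. Leaving out 1 library gave 0 to 1 members past the threshold; Fam57a passed in the fit without control replicate 2 and in none of the other 5, and its sign was the same in all 13 alternatives. List genes past the threshold were 1 with the replicate block and 1 in DESeq2 (Spns2 in both), and 0 to 2 with 1 library left out; near Fam57a, 1 gene (Rflnb) passed with the replicate block and 1 in DESeq2. Same-numbered libraries deviated together for numbers 1 and 2 (r = 0.311 and 0.311) but not 3 (r = -0.0726). Libraries of unlike number had r from -0.385 to 0.213. With 3 libraries per group these values cannot decide whether the numbers pair the samples. The numbers were not taken to pair them, and the block added no member. The order of levels in pyruvate medium changed for 2 genes with the longest transcript as length and for 4 with unshared exon bases, a length chosen after seeing the data. Members whose log2 change crossed 0 did so when 1 library was left out: Fam57b -0.998 to 0.091, Tlcd1 -0.10 to 0.024, Tlcd2 -0.0088 to 0.14, Cers1 -0.056 to 0.071, Cers2 -0.11 to 0.025 and Cers6 -0.056 to 0.25. The cause was not tested. At low depth, Fam57b (6 to 22 counts) had an SE of 0.51 and Cers3 (12 to 18 counts) an SE of 0.28; the part of depth in these errors was not tested.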
